A study of Caenorhabditis elegans with 2 samples.

Results

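In late embryos of Caenorhabditis elegans, 6 chaperone genes had an NHR-232 region in their promoters that passed the irreproducible discovery rate (IDR) threshold, namely hsp-60, hsp-6, dnj-29, dnj-19, dnj-5 and dnj-9. They are the 6 of 51 annotated protein-coding gene records named hsp or dnj whose promoter window (1000 bp before the 5′ end and 200 bp after it) held the summit of such a region. IDR is a procedure meant to keep regions whose ranks repeat between replicates. The 519 regions of the deposited list were the 519 pooled regions of highest signal, and how the list was derived is not stated. It held regions of very unequal rank in the replicates, dnj-9 among them, and 503 of the 519 had a match in both replicate lists, so presence in it is not by itself agreement between replicates. The members were chosen by these summits, so their signal, rank and presence in the IDR list are given as a description, with no test. Among all 19985 protein-coding genes, 277 had an IDR summit in the window (1.39%), and among the 5437 with a summit of any pooled candidate region there it was 5.09%. Since those shares rest on the summits that chose the members, nothing is read from the comparison. The deposited pooled list is named as peaks and background used as input for IDR. A candidate region in it may therefore be background rather than a bound site.

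The assay was chromatin immunoprecipitation followed by sequencing (ChIP-seq) on whole hermaphrodites of strain OP489, genotype unc-119(tm4063) III; wgIs489. The integrated transgene wgIs489 encodes the nuclear hormone receptor NHR-232 with GFP and FLAG at its C-terminus, and the text of the labels names an antibody against GFP, while their antibody field gives only the target's name. Embryos were collected 5 hours after bleach synchronisation, and the 2 samples are biological replicates of this 1 group. There is no second condition, the control library is not analysed here, and whole animals mix all cell types, so a region cannot be assigned to a tissue. The labels do not say what drives the transgene or how its level compares with that of the endogenous receptor.

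Heat shock proteins of the HSP60 and HSP70 families fold other proteins, and proteins with a J domain (DnaJ proteins, the dnj genes of the worm) deliver clients to HSP70 and stimulate its ATPase. In C. elegans, hsp-60 encodes the mitochondrial chaperonin and hsp-6 the mitochondrial HSP70, and transcription of both is widely used as a readout of the mitochondrial unfolded protein response. Many heat shock genes are driven by the heat shock factor through its own elements, and CCAAT boxes are bound in many animal promoters by the factor NF-Y.

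The sequences around 5 of the 6 summits are shown so that the letters CCAAT, or their reverse complement ATTGG, can be seen in place, in capitals. The dnj-29 summit has such a match too, but its sequence is not shown here. Each is read from the RefSeq sequence of WBcel235 (ce11), 5′ to 3′ on the strand of the named gene, so that the gene lies to the right. The stretches are chrIII:1619000-1619200 (plus strand) for hsp-60, chrV:4827059-4827259 (minus strand) for hsp-6, chrV:5505139-5505252 (minus strand) for dnj-19, chrII:6858982-6859182 (minus strand) for dnj-5 and chrII:4851703-4851903 (plus strand) for dnj-9. The summit is base 101 in each, except dnj-19, where the stretch begins at the edge of an exon of nhr-47 and the summit is base 14.
hsp-60: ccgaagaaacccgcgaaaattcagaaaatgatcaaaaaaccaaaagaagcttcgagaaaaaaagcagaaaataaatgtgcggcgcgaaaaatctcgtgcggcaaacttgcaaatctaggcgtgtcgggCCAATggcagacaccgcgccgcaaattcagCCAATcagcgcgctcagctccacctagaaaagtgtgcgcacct
hsp-6: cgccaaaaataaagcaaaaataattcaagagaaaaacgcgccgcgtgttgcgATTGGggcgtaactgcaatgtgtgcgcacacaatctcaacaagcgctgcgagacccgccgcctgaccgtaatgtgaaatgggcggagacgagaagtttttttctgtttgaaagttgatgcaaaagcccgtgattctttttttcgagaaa
dnj-19: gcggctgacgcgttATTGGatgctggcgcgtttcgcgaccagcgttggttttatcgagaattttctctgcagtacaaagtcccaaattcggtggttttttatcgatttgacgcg
dnj-5: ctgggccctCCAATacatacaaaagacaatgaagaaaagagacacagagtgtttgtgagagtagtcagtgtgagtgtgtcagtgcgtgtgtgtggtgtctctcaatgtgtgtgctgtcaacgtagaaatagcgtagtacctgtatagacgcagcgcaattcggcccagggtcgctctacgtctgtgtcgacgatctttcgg
dnj-9: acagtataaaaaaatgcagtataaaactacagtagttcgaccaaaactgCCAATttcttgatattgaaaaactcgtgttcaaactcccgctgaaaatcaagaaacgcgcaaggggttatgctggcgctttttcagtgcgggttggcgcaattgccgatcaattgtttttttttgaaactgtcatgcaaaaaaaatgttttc

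The letters CCAAT were picked after the sequences had been read, so their counts are a description. Searched on both strands up to 100 bp either side, CCAAT occurred in 6 of 6 member regions, against 51 of 207 nuclear promoter IDR regions (24.6%), 36 of 152 such regions with no tRNA, snoRNA, snRNA or rRNA gene within 200 bp (23.7%) and 1801 of 5445 pooled promoter candidates (33.1%). Within 50 bp it lay whole in 4 of 6 members (hsp-60, hsp-6, dnj-19 and dnj-29), against 11.1% of the 207 promoter IDR regions and 17.5% of the candidates. By their centres, the matches lay 30 bp from the summit at dnj-29, 46 bp at hsp-6, 49 bp at dnj-9 and 89 bp at dnj-5. At hsp-60 there were 2, at 30 and 60 bp, and at dnj-19 there were 3, at 3, 74 and 82 bp, the farther pair of which falls in nhr-47 and is not printed, as does the GCGCAC match of dnj-19 below. The letters GCGCAC, also picked after reading, occurred within 100 bp in dnj-29, hsp-60, dnj-19 and hsp-6. They were in 25.1% of the promoter IDR regions, 28.9% of the 152 with no such RNA gene nearby and 8.23% of the candidates. At hsp-60 and hsp-6 these letters stand on both strands of 1 run, gtgcgcac, with overlapping matches centred 93.5 and 95.5 bp from the summit at hsp-60 and 22.5 and 24.5 bp at hsp-6.

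Elements searched by list gave few matches within 50 bp of the summits. Both forms of the heat shock element core were searched, GAANNTTC and TTCNNGAA, each of which reads the same on both strands. TTCNNGAA occurred at hsp-60, centred 46.5 bp from the summit, against 5.31% of promoter IDR regions, and GAANNTTC occurred at no member, against 2.42%. Within 100 bp, hsp-60 also held 2 matches to GAANNTTC, centred 51.5 and 82.5 bp away, the nearer of which overlaps the TTCNNGAA match. dnj-19 held 1 match to GAANNTTC (47.5 bp) and hsp-6 held 1 to TTCNNGAA (95.5 bp). Within 100 bp, GAANNTTC was thus in 2 of 6 members, against 6.76% of promoter IDR regions and 10.54% of pooled promoter candidates. TTCNNGAA was also in 2 of 6, against 12.08% of promoter IDR regions and 10.6% of pooled promoter candidates. The nuclear hormone receptor half-sites AGGTCA and AGTGCA were found, on either strand, in 0 of 6 members at both widths, against 6.28% and 7.73% of promoter IDR regions within 100 bp. The endoplasmic reticulum stress core ACGTGG was also in 0 of 6 (3.86%). GAGAGA lay at the summit of dnj-5 (0.5 bp) and 51.5 bp from that of dnj-19, against 30.4% within 100 bp. GTTCGA, the core of the tRNA B box, lay 63.5 bp from the dnj-9 summit (22.7%). Of the 152 promoter IDR regions with no tRNA, snoRNA, snRNA or rRNA gene within 200 bp, 7.24% held GTTCGA within 100 bp. GAGAGA was in 29.6% of those 152, AGGTCA in 3.29% and AGTGCA in 8.55%. The absence of letters says only that they are not in these windows. The GC content within 50 bp ran from 45.5% at dnj-9 to 55.4% at dnj-19 and hsp-6, with a median of 50.5% in promoter IDR regions and 42.6% in pooled promoter candidates. All 50-base words within 100 bp of each of the 6 summits occurred once in the genome (100%).

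The gene hsp-60 (WBGene00002025) lies at chrIII:1619742-1625803, plus strand. The hsp-60 region (chrIII:1618865-1619334) had a signal of 164 in the pooled list, 82.9 in replicate 1 and 80.6 in replicate 2. Signal here is the authors' own peak value, whose scale is higher in the pooled list, so that levels are compared within a list. The region ranked 202 of 21094 pooled regions, 191 of 20530 in replicate 1 and 213 of 22891 in replicate 2, so its ranks in the replicates were close. Its summit lay 642 bp upstream of hsp-60 but 171 bp upstream of Y22D7AL.10, on the opposite strand. By its RefSeq product name Y22D7AL.10 encodes the mitochondrial co-chaperonin, the lid that closes the chaperonin barrel. Their 5′ ends are 813 bp apart, so 1 summit lies between the genes for both parts of the chaperonin and cannot be assigned to either. The replicate 2 summit was 64 bp closer to hsp-60 than the replicate 1 summit.

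The gene hsp-6 (WBGene00002010) lies at chrV:4824124-4826760, minus strand. The hsp-6 region (chrV:4826924-4827393) had a signal of 93.5 in the pooled list, 43.7 in replicate 1 and 50.1 in replicate 2. It ranked 470 in the pooled list, 587 in replicate 1 and 501 in replicate 2, so it was near the end of the IDR list and outside the strongest 519 of replicate 1. The summit lay 399 bp upstream of hsp-6 and 201 bp upstream of C37H5.5, which RefSeq names as a homologue of nucleolar complex protein 3 and which starts 600 bp away on the other strand. It lay inside both members of an overlapping pair of unclassified noncoding RNA genes, C37H5.15 (199 bp long, strand of C37H5.5) and C37H5.16 (272 bp long, strand of hsp-6). The summit was 81 bp into C37H5.15 and 105 bp into C37H5.16.

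Of the 4 DnaJ genes, dnj-29 had the strongest region. The gene dnj-29 (WBGene00001047) lies at chrI:14104515-14113108, minus strand. Its product is the worm relative of SEC63, which in yeast and human works with HSP70 at the translocation channel of the endoplasmic reticulum. The region (chrI:14113151-14113325) had a signal of 244 in the pooled list, 114 in replicate 1 and 129 in replicate 2. The ranks were 102, 108 and 94, the highest of the members in each of the 3 lists. The region was 175 bp wide, against a median of 470 bp in the pooled list, and a weaker pooled candidate (signal 45.9, rank 3505) had its summit 206 bp further upstream. Weaker pooled candidates also lay further upstream at hsp-6 (199 bp, signal 43.8, rank 4096) and dnj-5 (200 bp, signal 28.4, rank 14577). The summit of the dnj-29 region lay 153 bp upstream of dnj-29, 375 bp upstream of ndua-2, a complex I subunit gene on the other strand, and 933 bp upstream of fld-1, a TLC domain gene beyond it.

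The gene dnj-19 (WBGene00001037) lies at chrV:5503033-5504857, minus strand. The dnj-19 region (chrV:5505004-5505473) had a signal of 109 in the pooled list, 45.1 in replicate 1 and 62.1 in replicate 2. It ranked 365, 541 and 310, so it fell just outside the strongest 519 of replicate 1. dnj-19 encodes a J-domain protein whose closest human relatives are of the DNAJA class, partners of cytosolic HSP70. The summit lay 382 bp upstream of dnj-19 and 14 bp upstream of nhr-47, another nuclear hormone receptor gene, whose 5′ end is 396 bp from that of dnj-19 on the other strand. The summit also lay 22 bp into C24G6.10, an unclassified noncoding RNA gene of 138 bp on the strand of dnj-19, and 192 bp upstream of a shorter one, C24G6.12 (83 bp).

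The remaining pair, dnj-5 and dnj-9, had summits in the promoter window of no other protein-coding gene. RefSeq names both products only as J-domain or DnaJ proteins. The gene dnj-5 (WBGene00001023) lies at chrII:6853461-6858301, minus strand. The dnj-5 region (chrII:6858847-6859316) had a signal of 106 in the pooled list, 41.0 in replicate 1 and 60.8 in replicate 2, with ranks of 375, 702 and 323. Its summit was the farthest upstream of the members, at 781 bp, within a 2281 bp gap whose other end is aff-1, a cell fusion gene on the same strand. The summit positions of the replicates were 63 bp apart. The gene dnj-9 (WBGene00001027) lies at chrII:4852056-4857820, plus strand. The dnj-9 region (chrII:4851568-4852037) had a signal of 91.9 in the pooled list, 23.1 in replicate 1 and 69.0 in replicate 2. Its ranks were 490 in the pooled list, 5075 in replicate 1 and 270 in replicate 2. The summit lay 253 bp upstream of dnj-9 in the 395 bp that separate it from T23B7.3, which is on the same strand and ends 142 bp before the summit.

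**Figure D1:**
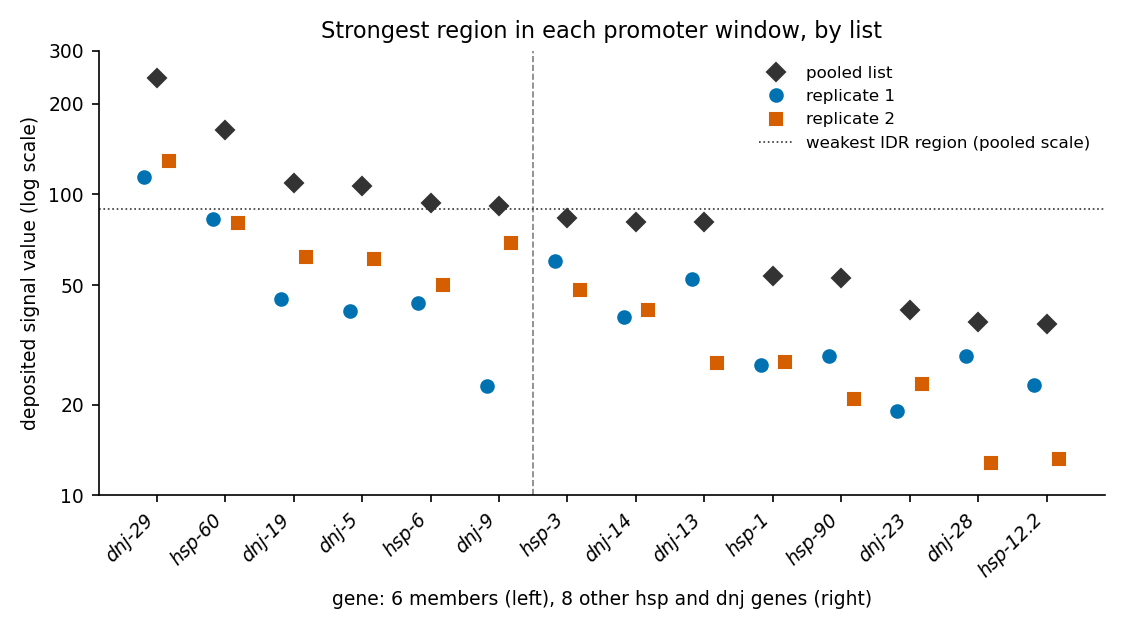
Deposited signal value (log scale) of the strongest region in the promoter window of each gene, in the pooled list (diamonds), replicate 1 (circles) and replicate 2 (squares); at hsp-3 and dnj-14, for example, the replicates' strongest regions have different summits. The 6 members lie to the left of the dashed line and the 8 other hsp and dnj genes of highest pooled signal to the right; the dotted line marks the weakest IDR region at 89.4. The pooled values of the members run from 244 at dnj-29 down to 91.9 at dnj-9, where replicate 1 is at 23.1 and replicate 2 at 69.0.

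**Figure D2:**
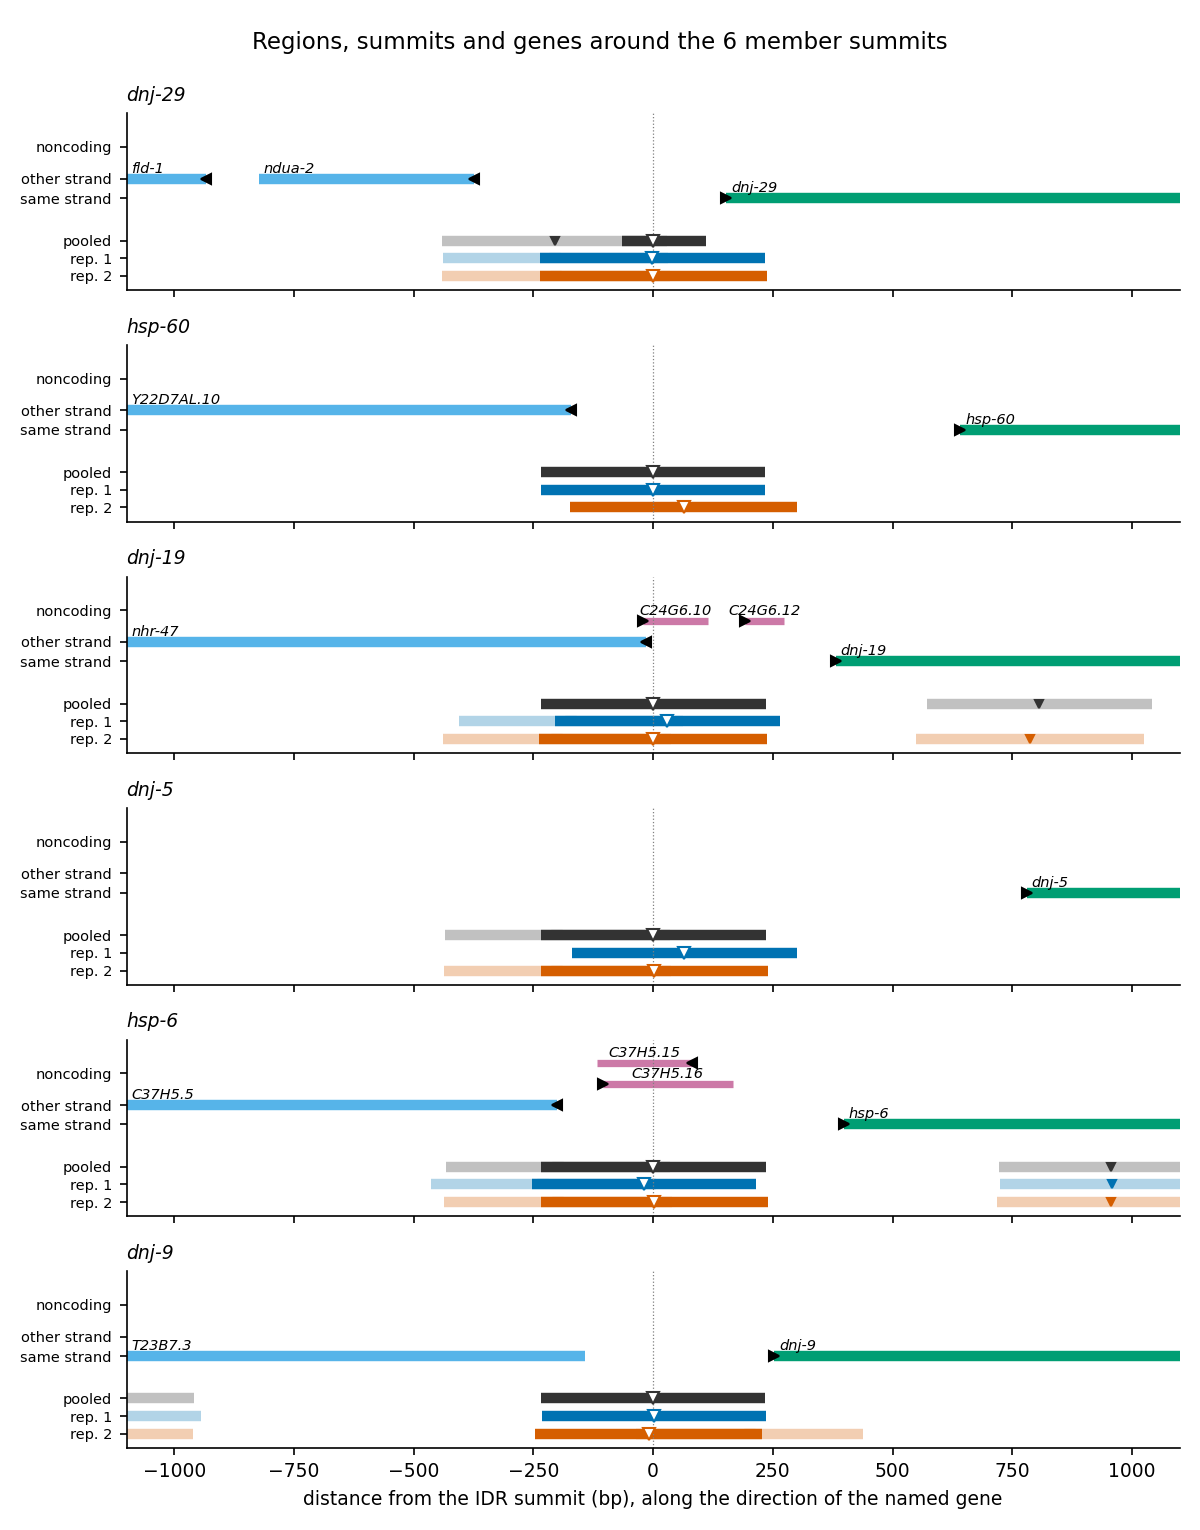
Regions (bars) and summits (triangles) of the pooled list and each replicate around the 6 IDR summits, by distance in bp along the direction of the named gene, which is in green; paler bars are other candidate regions, whose summits are hidden where a darker bar covers them. Arrowheads mark the 5′ ends of genes, with other protein-coding genes in blue and noncoding RNA genes in pink. At hsp-60, hsp-6, dnj-19 and dnj-29 the summit lies between 2 divergent genes, and at hsp-6 and dnj-19 it lies inside noncoding RNA genes.

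Divergent promoters held 4 of the 6 regions. In 207 nuclear promoter IDR regions, 61 lay in the windows of genes on both strands (29.5%, 95% Wilson interval 23.7 to 36.0), and in the 152 with no tRNA, snoRNA, snRNA or rRNA gene within 200 bp it was 54 (35.5%, interval 28.4 to 43.4). These intervals cover counting error only. With 6 members, the share in the members was not tested. The summit was upstream of every gene whose window held it in all 6 members, as in 201 of the 207 regions. The median summit of the members was 390.5 bp upstream of the 5′ end, with 153 to 781 bp as the range, against a median of 255.5 bp upstream over 212 pairs of a gene and a summit in the 152 regions. These medians are unlike measures, since the members are measured from the hsp or dnj gene only and the pairs from every gene. The summit was nearer to another gene at hsp-60 (171 bp), dnj-19 (14 bp) and hsp-6 (201 bp), but not at dnj-29 (375 bp). Annotated 5′ ends of worm genes are often trans-splice sites rather than transcription starts.

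Small structural RNA genes were not near these summits, although they lie near many NHR-232 regions. None of the 6 had a tRNA, snoRNA, snRNA or rRNA gene within 200 bp, against 55 of the 207 promoter IDR regions (26.6%), and the nearest such gene was 5797 bp away at dnj-5 and 14327 bp at hsp-60. At the other 4 it was 49587 bp or more away. The noncoding RNA genes at hsp-6 and dnj-19 are of the unclassified kind, which lay within 200 bp of 26 of the 152 regions without small structural RNA genes (17.1%, interval 11.9 to 23.9). All 6 members therefore belong to those 152 promoter regions, whose median signal was 119, and there they ranked 13 (dnj-29), 38 (hsp-60), 90 (dnj-19), 94 (dnj-5), 135 (hsp-6) and 140 (dnj-9).

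All 6 members had a region within 100 bp of the IDR summit in both replicate lists. Only dnj-29 and hsp-60 were among the strongest 519 regions of both, as were 133 of the 207 promoter IDR regions (64.3%). Replicate 2 alone held all 6 members among its strongest 519, against 1.46% of all protein-coding genes. Replicate 1 held 2 members, against 1.27% of all protein-coding genes, together with hsp-3 and dnj-13, which are not in the IDR list. The members were chosen by summits of the pooled list, to which both replicates contribute, so nothing is read from their shares against all genes. Read totals were not used here, so depth cannot be set against the difference between the replicates, and its cause was not tested.

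**Figure D3:**
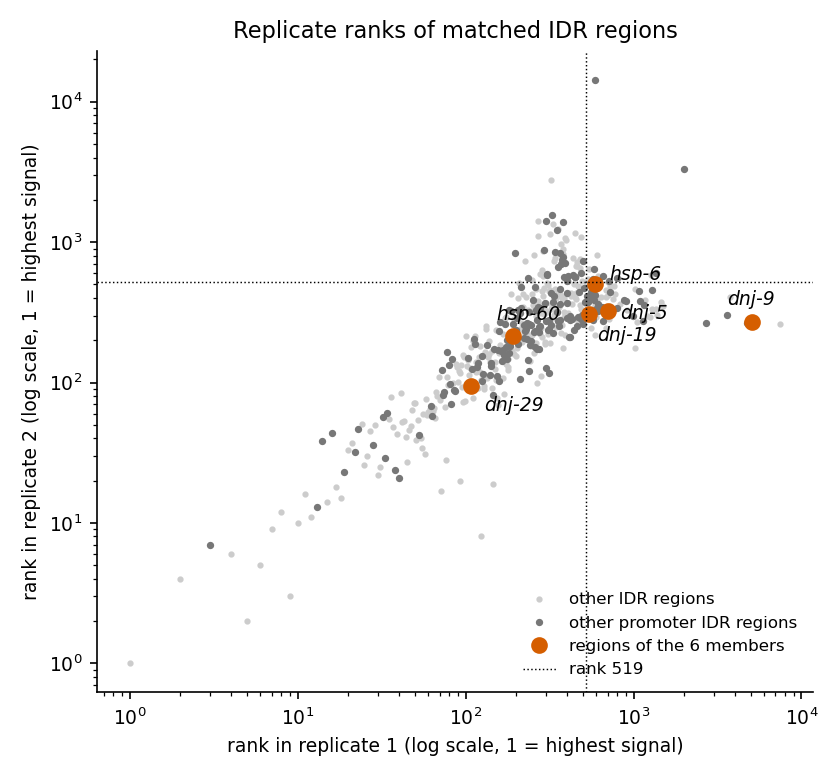
Rank of each of the 503 IDR regions matched in both replicates, in replicate 1 (horizontal) and replicate 2 (vertical), both on log scales with 1 as the highest signal; dotted lines mark rank 519. dnj-29 and hsp-60 lie inside both lines, dnj-19, dnj-5 and hsp-6 just beyond the line of replicate 1, and dnj-9 far beyond it at rank 5075.

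The ratio of signal in replicate 2 to that in replicate 1 had a median of 1.06 over the 503 matched IDR regions, with quartiles of 0.907 and 1.25. It was 0.973 at hsp-60, 1.13 at dnj-29 and 1.15 at hsp-6, all within the quartiles. It was 1.38 at dnj-19 and 1.48 at dnj-5, above the upper quartile. At dnj-9 it was 2.99, the highest of the 201 matched nuclear promoter regions and exceeded by 2 of all 503. The deposited −log10 q value of the dnj-9 region was 1.56 in replicate 2 and 0.321 in replicate 1, while the other 5 members had 1.40 to 1.67 in both. dnj-9 was also 1 of 2 matched IDR regions with a replicate 1 rank over 5000. Its summits nevertheless stood 11 bp apart, less than the median of 20 bp over the 503. At dnj-9, then, the replicates shared a position but not a height. With a −log10 q value of 0.321, replicate 1 alone gives little evidence of a region there.

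**Figure D4:**
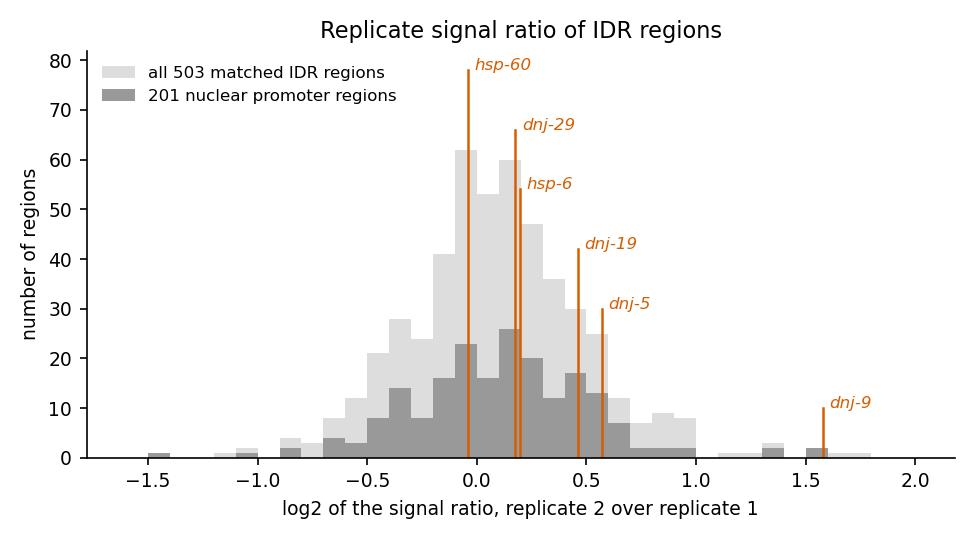
Distribution over IDR regions of the log2 ratio of signal in replicate 2 to replicate 1, for all 503 matched regions (light) and the 201 nuclear promoter regions (dark). Vertical lines mark the 6 members at their ratios, from 0.973 at hsp-60 to 2.99 at dnj-9; the height of a line carries no value.

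The other hsp and dnj genes ended below the threshold, some of them closely. The weakest IDR region had a signal of 89.4 (rank 519) and the next pooled region 89.3 (rank 520), so dnj-9 (91.9) and hsp-6 (93.5) were the members just inside. The first hsp or dnj gene outside was hsp-3, which encodes an HSP70 of the endoplasmic reticulum, with a pooled signal of 83.2 (rank 606). The pooled summit lay 149 bp downstream of the 5′ end, as did that of replicate 1, with a signal of 59.99 (rank 317). The strongest region of replicate 2 in the window was another one, with its summit 125 bp upstream of the 5′ end and a signal of 48.23 (rank 549). dnj-14, a homologue of cysteine string protein, followed with a pooled signal of 81.3 (rank 639) and its summit 249 bp upstream, where replicate 2 had a signal of 41.4. The strongest region of replicate 1 in that window had its summit elsewhere, 47 bp upstream, with a signal of 39.0. dnj-13, a J-domain protein of the DNAJB class, had 81.0 (rank 643) with its summit 209 bp upstream. Within 2 bp of that position it had 52.2 in replicate 1 (rank 397) and 27.6 in replicate 2 (rank 2695), the opposite imbalance to dnj-9.

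A gap in signal separated these from the rest of the family. The cytosolic HSP70 gene hsp-1 had a pooled signal of 53.5 (rank 2107) and hsp-90, the cytosolic HSP90 gene, 52.7 (rank 2188). They were followed by dnj-23 (41.3), dnj-28 (37.8) and the small heat shock gene hsp-12.2 (36.99). The members have a candidate by the rule that chose them. Of the 45 other gene records, 18 had a pooled candidate in the window (40%), against 27.2% of all protein-coding genes, a difference that was not tested. Since the pooled list includes background, these shares are not shares of bound genes. These 18 had a median signal of 35.4 that compares with 35.01 over all 5437 genes with a candidate. In 11 of these 18, both replicate lists had a region in the window as well, whatever its position there. The strongest regions of the replicates shared a position at dnj-13, for example, but not at hsp-3, dnj-14 or hsp-4. The other 27 records had no pooled candidate there, among them hsp-70, hsp-110, hsp-17, hsp-75 and dnj-10. Of 10 records named hsp-12 or hsp-16, 3 had a candidate, and the highest signal among them was 36.99, at hsp-12.2. hsp-16.2 and hsp-16.41 share 1 candidate (31.9) between them. The names hsp-16.1 and hsp-16.48 each stand for 2 near-identical records, where reads may not be placed uniquely, so their lack of a region is uncertain.

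The wider folding machinery was read from 5 gene lists. A gene counted as bound when an IDR summit lay in its promoter window, even where another gene shared that summit. Of 19 genes of mitochondrial protein folding, import and stress signalling, 9 had a pooled candidate and 4 an IDR summit, namely hsp-60, Y22D7AL.10, hsp-6 and tomm-20. The list was chosen with results of these data known, hsp-60 and hsp-6 belong to it by choice, and Y22D7AL.10 shares the hsp-60 region, so only tomm-20 adds a region. tomm-20 encodes a receptor of the mitochondrial import pore, and its region (chrV:12343540-12344009) had a signal of 94.7 in the pooled list, 35.1 in replicate 1 (rank 1161) and 57.8 in replicate 2 (rank 356). Like 5 of the 6 members it ranked higher in replicate 2. Its summit lay 306 bp upstream of the gene. With the members and the genes that share their regions left out, 6 of the other 16 mitochondrial genes had a candidate (37.5%) and 1 was bound. Over all protein-coding genes the shares were 27.2% with a candidate and 1.39% bound. Of 25 genes of folding and stress signalling in the endoplasmic reticulum, dnj-29 alone was bound, and 18 of the other 24 had a candidate (75%). Of 16 genes of cytosolic HSP70, HSP90 and their partners, dnj-19 alone was bound, by a summit nearer to nhr-47 (14 bp) than to dnj-19 (382 bp). Among the other 15, 7 had a candidate (46.7%). Of 14 genes of the cytosolic chaperonin and prefoldin, 9 had a candidate (64.3%) and 0 were bound. Of 12 small heat shock genes found under their listed names, 4 had a candidate (33.3%) and 0 were bound. Among genes with a candidate, and without the members' regions, the median of the highest signal per gene was 35.4 for the mitochondrial list. It was 48.8 for the endoplasmic reticulum list, 52.7 for the cytosolic list, 40.8 for chaperonin and prefoldin and 31.9 for small heat shock genes, against 35.01 over all genes with a candidate. The differences between these lists and all genes were not tested. A candidate may be background, so the shares with a candidate are not shares of bound genes.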

How the data were processed

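Per the labels and the text lists of files, the authors deposited narrowPeak lists in ce11 and ce10. The lists were called on each replicate and on the pooled replicates with a control file, and the IDR list derives from these. No source used here gives the aligner, peak caller or settings. The deposited signal value of a region (column 7) is the authors' own, on a scale that differs between pooled and single-replicate lists. The deposited −log10 q values (q-value of each region) and summit offsets were used as given. The ce10 lists were not used here.

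Coordinates are 1-based on ce11, set against the RefSeq sequence of WBcel235 and its Ensembl release 115 annotation. Regions were ranked by signal within each list. A replicate region matched an IDR region when its summit lay within 100 bp, and the strongest such region was taken. Intervals are 95% Wilson intervals. Depth is unknown. The placement of summits in windows was tested on simulated data. The text names the 6 members, genes that share or adjoin their regions, the 8 other hsp and dnj genes of highest pooled signal, and bound genes of the proteostasis lists. Other genes without a candidate, the hsp-16 genes, and aff-1 and T23B7.3 as the nearest upstream genes, were named after their values were seen. In the lists, daf-21 is an older symbol of hsp-90, and the symbols hsp-16.11 and hsp-16.49 were not matched. The members and lists were chosen with earlier results of these data known. Tables were made with pandas 2.3.3, intervals with scipy 1.17.1 and figures with matplotlib 3.10.9.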

Additional observations from a re-analysis of the deposited data

How the results depend on the processing

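The count of 6 bound members, and of 6 bound hsp and dnj genes, fell to 2 with the strongest 259 IDR regions. With 500 bp promoters both were 4, since the dnj-5 and hsp-60 summits lie further upstream. The strongest 519 regions in the deposited list of 1 replicate alone gave 2 to 6 members and 4 to 6 hsp and dnj genes. The lower values were those of replicate 1. The 2 members among the strongest regions of both replicates became 1 with summits within 50 bp and 6 at any rank. With tRNA, snoRNA, snRNA and rRNA genes only, the count of 2 regions near noncoding RNA genes became 0. Pairs of a listed motif and a member holding it numbered 2 within 50 bp, 7 within 100 bp and 12 in whole regions, by construction of the wider windows. In the deposited single-replicate lists, ranks ran from 94 to 108 at dnj-29, 191 to 213 at hsp-60 and 310 to 541 at dnj-19. They ran from 323 to 702 at dnj-5, 270 to 5075 at dnj-9 and 501 to 587 at hsp-6. Summits relative to the 5′ end ran from -155 to -153 bp at dnj-29, -642 to -578 at hsp-60, -383 to -352 at dnj-19, -779 to -716 at dnj-5, -262 to -251 at dnj-9 and -419 to -397 at hsp-6. Causes were not tested. With 2 replicates of 1 group and no read totals, differences between replicates cannot be set against depth. No paired analysis was possible because there is 1 group.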
